A study of Mus musculus with 46 samples.

Results

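The 8 genes described here belong to the cartilage program but encode no collagen. They are the transcription factor genes Sox9, Sox5 and Sox6 and the genes Acan, Hapln1, Matn3, Comp and Lect1 for matrix proteins. They were chosen by symbol, and all 8 were found among the 29871 listed genes. Each was read in 46 single cells, with the cartilage collagen genes Col2a1 and Col9a1 as the reference. The cells came from the cochlea of C57BL/6 mice at postnatal day 10 with the genotype Dio2creERt2:Ai6. In these animals a tamoxifen-dependent Cre recombinase, made from the Dio2 gene, switches on a green reporter that stays on in the cell and its descendants. The allele was heterozygous per the labels, the cells were freed with papain, and fluorescent cells were picked one at a time under a microscope. All cells carry the same labels, and the animal of each is not named. The 46 cells therefore count as 1 sample, and cells were compared without a test. A reporter of this kind marks cells that had Cre activity at the time of induction, which is not given in the labels, and the share of cells described here is that of the picked cells and not of the tissue.

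In cartilage, Sox9 switches on the genes of the chondrocyte matrix, and Sox5 and Sox6 bind beside it and raise its effect. The matrix itself is built from type II collagen fibrils with type IX collagen on their surface. Between the fibrils lie aggregates of the proteoglycan aggrecan (Acan) held on hyaluronan by link protein (Hapln1), with matrilin-3 (Matn3) and cartilage oligomeric matrix protein (Comp) as adaptors. Chondromodulin (Lect1, now named Cnmd) is a membrane-bound protein of avascular cartilage whose shed part inhibits vessel growth. In the inner ear, type II and type IX collagens are also made outside cartilage, by connective tissue cells.

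Depth ran from 2522853 to 10350249 reads per cell over the listed genes (median 4789573). One read was worth 0.0870 to 0.347 CPM, where CPM is reads per 1000000 reads of the cell. Low reads of abundant genes occurred in nearly every cell, so above background here means a CPM of at least 10 that is also at least 1% of the gene's mean over the 46 cells. The cells fell into 6 clusters, built without the 8 members, the reference collagens or any other listed gene. A cluster of 14 cells was osteoblast-like (8 of 9 osteoblast markers), one of 9 cells was fibrocyte-like (6 of 8 markers of fibrocytes, which form the connective tissue of the cochlea), and one of 4 cells was macrophage-like (7 of 7 markers). The top genes of the fibrocyte-like cluster also included Ucma and Clec3a, which are known from cartilage. Clusters 2 (9 cells), 4 (6 cells) and 5 (4 cells) met no naming rule and are given by number. The chondrocyte panel, which includes members and both collagens and was also run, had 5 of 12 markers raised in cluster 5, 4 of 12 in the fibrocyte-like cluster, 3 of 12 in cluster 2 and 1 of 12 in the osteoblast-like cluster. None of its markers was among the top 10 genes of a cluster. Other panels were raised in the unnamed clusters too. Cluster 5 had 4 of 6 general fibroblast markers and 3 of 8 fibrocyte markers raised, and cluster 2 had 2 of 6 and 2 of 8. Cells of a cluster often have neighbouring numbers, so cluster and numbering cannot be told apart. Reads carry no molecular identifiers, and an interval of a level covers the counting of reads only. An interval of a share covers the counting of cells as if they were independent, and neither covers differences between animals.

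The cells held a part of the cartilage program, led by Sox9 and Lect1. Sox9 was above background in 28 of 46 cells (60.9%, exact Clopper-Pearson 95% interval 45.4% to 74.9%), and Lect1 in 21 (45.7%, 30.9% to 61%). The other members were found in few cells. Acan was above background in 5 cells (10.9%, 3.62% to 23.6%), Sox5 and Comp in 4 each (8.70%, 2.42% to 20.8%), Hapln1 in 3 (6.52%, 1.37% to 17.9%) and Sox6 in 2 (4.35%, 0.531% to 14.8%). Matn3 had no read in any cell. The reference collagens were more widespread, with Col2a1 above background in 34 cells (73.9%, 58.9% to 85.7%) and Col9a1 in 29 (63.0%, 47.5% to 76.8%). In the 4 macrophage-like cells, which should lack all of these genes, Sox9 and Lect1 were each above background in 1 and both collagens in 0.

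**Figure D1:**
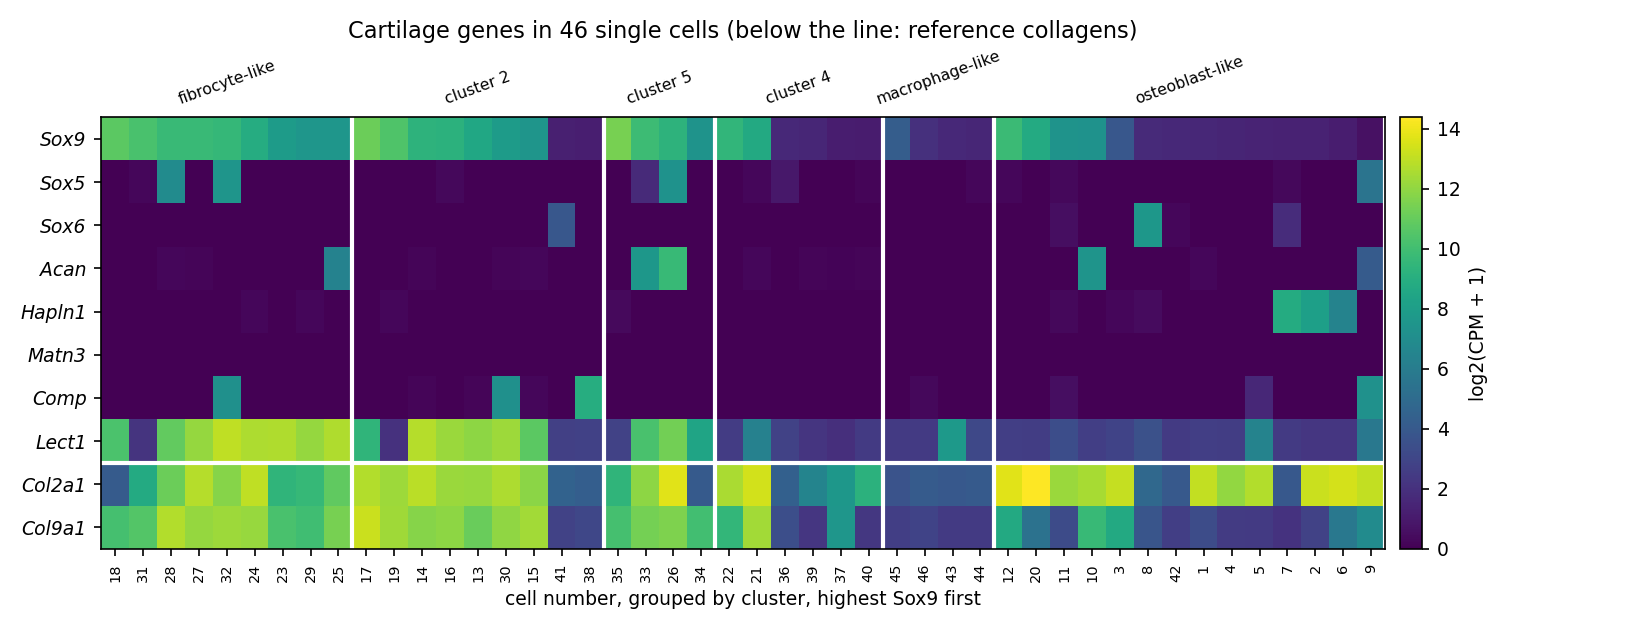
Level of the 8 members and the 2 reference collagens in each of the 46 cells, as log2(CPM + 1) in colour. Cells run along the horizontal axis by cluster and, within a cluster, from high to low Sox9, and genes run down the vertical axis. Sox9, Lect1, Col2a1 and Col9a1 fill most of the fibrocyte-like and cluster 2 columns, while Sox5, Sox6, Acan, Hapln1 and Comp appear as single bright cells and the Matn3 row is empty.

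Per kilobase of merged exon, which allows a rough comparison of genes, the median level in cells above background was 1377 CPM per kb for Lect1, 579 for Col2a1, 433 for Col9a1 and 130 for Sox9. It was lower for the sparse members, at 51.3 CPM per kb for Comp, 46.8 for Hapln1, 22.9 for Acan, 9.73 for Sox5 and 7.03 for Sox6. Merged exons count all annotated transcripts, 14.4 kb for Sox5 and 14.8 kb for Sox6 against 2.97 kb for Comp. The order of the sparse members therefore rests partly on length. Before division the medians were 152 CPM for Comp, 276 for Hapln1, 171 for Acan, 140 for Sox5 and 104 for Sox6. Lect1 was thus the member with the highest level where it was present.

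Sox9 (chr11:112782224-112787760 on GRCm38, plus strand) encodes the factor on which cartilage formation depends. It had 3 grades of level with wide gaps between them. In 26 cells it stood between 157 and 2713 CPM, in cells 45 and 3 at 17.6 and 13.8 CPM, and in the other 18 cells between 0.583 and 3.02 CPM. The highest values were 2713 CPM in cell 35 of cluster 5, 2227 and 1378 CPM in cells 17 and 19 of cluster 2, and 1714 and 1196 CPM in the fibrocyte-like cells 18 and 31. The limit of the call lay between 13.8 CPM in cell 3 and 3.02 CPM in cell 46, and the counting interval of cell 3 was 10.7 to 17.4 CPM.

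By cluster, Sox9 was above background in all 9 fibrocyte-like cells, with levels from 184 to 1714 CPM around a median of 767 CPM. So it was in all 4 cluster 5 cells (168 to 2713 CPM, median 768 CPM) and in 7 of 9 cluster 2 cells (1.30 to 2227 CPM, median 372 CPM). In cluster 4 it was above background in 2 of 6 cells, at 427 and 694 CPM in cells 21 and 22. Of the 4 macrophage-like cells only cell 45 passed the limit. In the osteoblast-like cluster 5 of 14 cells were above background, with 885, 446, 169, 157 and 13.8 CPM in cells 12, 20, 11, 10 and 3, against a median of 2.08 CPM over the cluster. The level of cell 12 lay within the range of the fibrocyte-like cells. The ranges of the fibrocyte-like cluster and of clusters 2, 4 and 5 overlapped that of the osteoblast-like cluster, so none of these is set apart by Sox9 alone.

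Sox5 (chr6:143828425-144781977, minus strand) and Sox6 (chr7:115470872-116038796, minus strand) encode the partner factors of Sox9. Sox5 was above background in the fibrocyte-like cells 32 and 28, at 179 and 122 CPM, in cell 26 of cluster 5 at 158 CPM, and in the osteoblast-like cell 9 at 45.1 CPM. Its highest value in any other cell was 2.31 CPM. Sox6 was above background in the osteoblast-like cell 8 at 194 CPM and in cell 41 of cluster 2 at 14.1 CPM, and had reads in only 5 cells. Sox9 was joined by Sox5 in 3 cells and by Sox6 in 0, and no cell held all 3 factors. Both cells with Sox6 had Sox9 at background, at 2.26 CPM in cell 8 and 1.39 CPM in cell 41. Sox9 was at background in 18 of all 46 cells, so 2 cells with Sox6 are too few to show a separation. Sox5 overlaps 5 annotated genes on the opposite strand and Sox6 overlaps 2. The use of strand in counting is not given in the sources used here, so reads of these pairs cannot be told apart.

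Lect1 (chr14:79637690-79662170, minus strand) encodes chondromodulin. It stood between 1207 and 8028 CPM in 15 cells, between 53.3 and 683 CPM in 6 cells, and between 2.89 and 10.6 CPM in the other 25. The highest level was 8028 CPM in the fibrocyte-like cell 32, followed by 7031 CPM in cell 14 of cluster 2 and 6456, 6368 and 6314 CPM in the fibrocyte-like cells 25, 23 and 24. It was above background in 8 of 9 fibrocyte-like cells (median over the cluster 4410.5 CPM), in 6 of 9 cluster 2 cells (1719 CPM) and in 3 of 4 cluster 5 cells (770.3 CPM). Cluster 4 had it in 1 of 6 cells, cell 21, at 78.1 CPM. In the osteoblast-like cluster it was above background in 2 of 14 cells, at 84.0 and 53.3 CPM in cells 5 and 9. The macrophage-like cell 43 had 215 CPM.

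**Figure D2:**
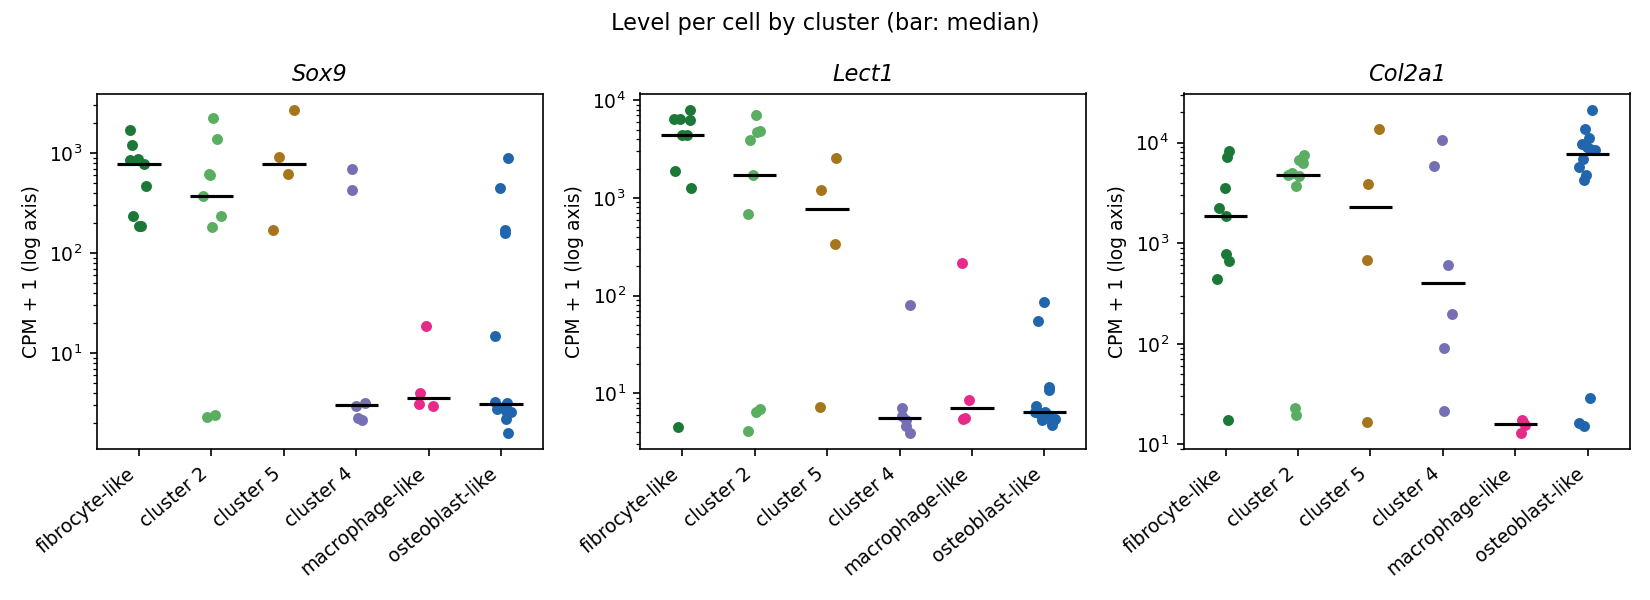
Level of Sox9, Lect1 and Col2a1 in each of the 46 cells by cluster, as CPM + 1 on a log axis, with 1 point per cell and a bar at the cluster median. Osteoblast-like cells had a median of 7657 CPM for Col2a1 but 2.08 CPM for Sox9 and 5.36 CPM for Lect1.

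Of the 28 cells with Sox9, 18 also had Lect1 and 10 did not. The 18 cells with both had Sox9 at 168 to 2227 CPM (median 538 CPM), and the 10 with Sox9 alone had 13.8 to 2713 CPM (median 570.05 CPM). Among these 28 cells the medians were thus close. The lowest Sox9 levels, 13.8, 17.6 and 157 CPM in cells 3, 45 and 10, were all in cells without Lect1. In 3 of the 5 cells with the highest Sox9, cells 35, 19 and 31, Lect1 was at background. Of these 10 cells 5 were osteoblast-like. Of the 18 cells with Sox9 at background, 3 had Lect1. They were the osteoblast-like cells 5 and 9 and the macrophage-like cell 43.

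The 250 bases before the start of Lect1, of Col9a1 (the collagen gene whose pattern was closest to Sox9) and of Acan (a further known target of Sox9, found here in 5 cells) are shown side by side, from RefSeq on GRCm38.p6. They are written 5′ to 3′ on the gene's own strand, with capitals for CG dinucleotides. They run over chr14:79662184-79662433 (minus strand) for Lect1, chr1:24177360-24177609 (plus strand) for the first of the windows listed for Col9a1 and chr7:79052976-79053225 (plus strand) for Acan.
Lect1: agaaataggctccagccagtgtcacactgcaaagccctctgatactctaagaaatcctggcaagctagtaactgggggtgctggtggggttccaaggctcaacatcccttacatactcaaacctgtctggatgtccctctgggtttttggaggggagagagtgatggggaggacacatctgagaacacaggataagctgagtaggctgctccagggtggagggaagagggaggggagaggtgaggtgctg
Col9a1: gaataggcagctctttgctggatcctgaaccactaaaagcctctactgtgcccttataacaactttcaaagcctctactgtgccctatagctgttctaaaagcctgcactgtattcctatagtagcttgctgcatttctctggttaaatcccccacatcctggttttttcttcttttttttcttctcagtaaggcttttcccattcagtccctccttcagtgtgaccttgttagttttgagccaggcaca
Acan: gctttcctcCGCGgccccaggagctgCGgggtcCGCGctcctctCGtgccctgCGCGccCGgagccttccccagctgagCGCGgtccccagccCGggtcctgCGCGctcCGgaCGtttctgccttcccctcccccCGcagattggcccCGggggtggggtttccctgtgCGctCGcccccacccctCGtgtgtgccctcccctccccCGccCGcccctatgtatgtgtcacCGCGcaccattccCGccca
The windows of Lect1 and Col9a1 held 0 CG dinucleotides each and 54.0% and 43.6% G or C. That of Acan held 26 CG dinucleotides and 74.4% G or C, above 95.4% of the 32851 windows of the same length. The median over all windows was 6 CG dinucleotides and 52.4% G or C. None of these 3 windows held the SOX-type motif AACAAT or ACAAAG on either strand. AACAAT was found in 9.42% and ACAAAG in 16.5% of all windows, counting both strands. The table has a window for 6 of the 8 members.

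The genes for the aggregating matrix were found singly. Acan (chr7:79053483-79115099, plus strand) encodes aggrecan, the large proteoglycan that gives cartilage its swelling pressure. It reached 831 and 194 CPM in cells 26 and 33 of cluster 5, 82.4 CPM in the fibrocyte-like cell 25, and 171 and 16.5 CPM in the osteoblast-like cells 10 and 9. Its highest value in any of the other 41 cells was 0.198 CPM. Of these 5 cells 4 had Sox9, and cell 9 did not. Hapln1 (chr13:89539796-89611652, plus strand) encodes link protein, which fixes aggrecan to hyaluronan. It was above background in the osteoblast-like cells 7, 2 and 6, at 466, 276 and 84.9 CPM, and at most 0.322 CPM in any other cell. Acan and Hapln1 were together above background in 0 cells, and all 3 cells with Hapln1 had Sox9 at background. With Acan in 5 and Hapln1 in 3 of 46 cells, 0 shared cells do not show that the genes are kept apart. Sox9 was at background in 18 of all 46 cells. Hapln1 overlaps 1 annotated gene on the opposite strand.

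Comp (chr8:70373558-70382066, plus strand) encodes a pentameric adaptor protein also known from tendon and ligament. It was at 486 CPM in cell 38 of cluster 2, 154 CPM in the osteoblast-like cell 9, 150.4 CPM in the fibrocyte-like cell 32 and 147 CPM in cell 30 of cluster 2, with at most 2.08 CPM elsewhere. Cell 38 had the highest Comp level and no other member above background, and neither reference collagen. Matn3 (chr12:8947929-8972028, plus strand) encodes matrilin-3. In a single cell 3 reads, the limit that a count of 0 allows, correspond to 0.261 to 1.04 CPM. This limit covers the counting of reads only. Loss of a transcript before sequencing was not measured.

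Counted per cell, the program as detected was partial everywhere. A transcript lost before sequencing would be counted as missing here, for every member. Of the 46 cells 9 had no member above background, 17 had 1, 13 had 2, 4 had 3 and 3 had 4, and no cell had more. The most frequent combination was Sox9 with Lect1 and no other member, in 12 cells, followed by Sox9 alone in 9. The cells with 4 members were the fibrocyte-like cell 32 (Sox9, Sox5, Comp and Lect1), cell 26 of cluster 5 (Sox9, Sox5, Acan and Lect1) and the osteoblast-like cell 9 (Sox5, Acan, Comp and Lect1). Cell 9 had Sox9 at 0.583 CPM, the lowest of all cells, while it held 9 of 9 osteoblast markers and 4 of 8 fibrocyte markers above background. The 3-member cells were cells 25 and 28 (fibrocyte-like), 30 (cluster 2) and 33 (cluster 5). At least 1 of the 5 sparse genes Sox5, Sox6, Acan, Hapln1 and Comp was present in 14 cells.

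**Figure D3:**
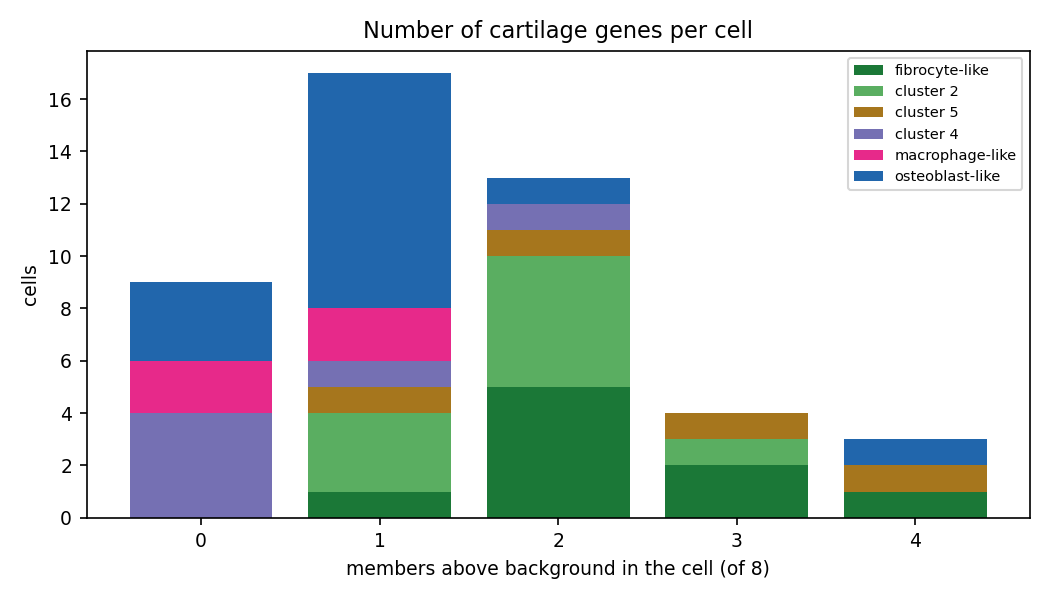
Number of cells (vertical axis) by how many of the 8 members were above background in the cell (horizontal axis), with colours for the clusters. The largest bar is that of 17 cells with 1 member, 9 of them osteoblast-like, and no cell reached 5 members.

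The clusters differed in this count. In the fibrocyte-like cluster 8 of 9 cells had at least 2 members, in cluster 2 it was 6 of 9, in cluster 5 it was 3 of 4 and in cluster 4 it was 1 of 6. Of the macrophage-like cells 0 of 4 had at least 2 members. In the osteoblast-like cluster 2 of 14 cells did, 9 had 1 member and 3 had none. At least 3 osteoblast and 3 fibrocyte markers were above background together in 14 cells, 12 of them osteoblast-like. Without these 14 cells, a choice made after seeing the data, Hapln1 was above background in 0 cells, Acan in 3 and Comp in 2. Whether these cells hold material of another cell was not tested.

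Of the reference collagens, Col9a1 was found without Sox9 in 3 of its 29 cells and Col2a1 in 9 of its 34. Sox9 was above background in 26 of the 29 cells with Col9a1 (89.7%, 72.6% to 97.8%) and in 2 of the 17 without it (11.8%, 1.46% to 36.4%). The lowest, median and highest Sox9 levels were 0.583, 470 and 2713 CPM in cells with Col9a1, against 1.13, 1.94 and 169 CPM in cells without it. The difference of mean log2(CPM + 1) was 6.08, with a pooled SD over cells of 2.47. Lect1 was above background in 19 of 29 cells with Col9a1 and 2 of 17 without (medians 1207 and 5.35 CPM, difference 4.80, pooled SD 3.66). Of all 11447 genes compared, 3.75% were higher by at least 2 log2 units in cells with Col9a1 and 2.19% were lower. Of the 8 members 2, Sox9 and Lect1, were higher by that size. Acan differed by 1.23, Sox5 by 0.92 and Comp by 0.10, while Sox6 differed by -0.83 and Hapln1 by -0.77. Only 5 of the 8 members had at least 1 CPM in at least 5 cells, the minimum set for all genes, and Acan and Sox5 reached it only through cells with both collagens. Sox6, Hapln1 and Matn3 did not reach it. Without the 14 cells with osteoblast and fibrocyte markers the differences by Col9a1 were 6.97 for Sox9 and 6.40 for Lect1.

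Col2a1 (chr15:97975602-98004695, minus strand) gave smaller differences of both genes. Of the 34 cells with Col2a1, 25 had Sox9 (73.5%, 55.6% to 87.1%), and so did 3 of the 12 without (25%, 5.49% to 57.2%). The difference of Sox9 was 3.80 with a pooled SD of 3.49, and that of Lect1 was 2.66 with a pooled SD of 4.19. Between these cells 5.07% of all genes were higher and 2.52% lower by at least 2 log2 units. Of the 5 members that reached the minimum set for all genes, 2 were higher, Sox9 and Lect1 again. Acan differed by 1.10 and Sox6 by -1.12. Without the 14 cells with osteoblast and fibrocyte markers the differences by Col2a1 were 4.72 for Sox9 and 4.35 for Lect1. Cells with Col2a1 and Sox9 had Col2a1 at 435 to 21230 CPM (n = 25, median 4939 CPM), against 89.6 to 11089.8 CPM in the 9 cells with Col2a1 but not Sox9 (median 6847 CPM). Among osteoblast-like cells, the 5 with Sox9 had Col2a1 at 4764 to 21230 CPM (median 9017 CPM), and 6 without Sox9, cells 1, 2, 4, 5, 6 and 9, had 4279 to 11089.8 CPM (median 8522 CPM). Their ranges overlapped, while Sox9 in these 6 cells stayed between 0.583 and 1.98 CPM. All 11 of these osteoblast-like cells are among the 14 cells with at least 3 osteoblast and 3 fibrocyte markers, so the comparison rests wholly on such cells.

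**Figure D4:**
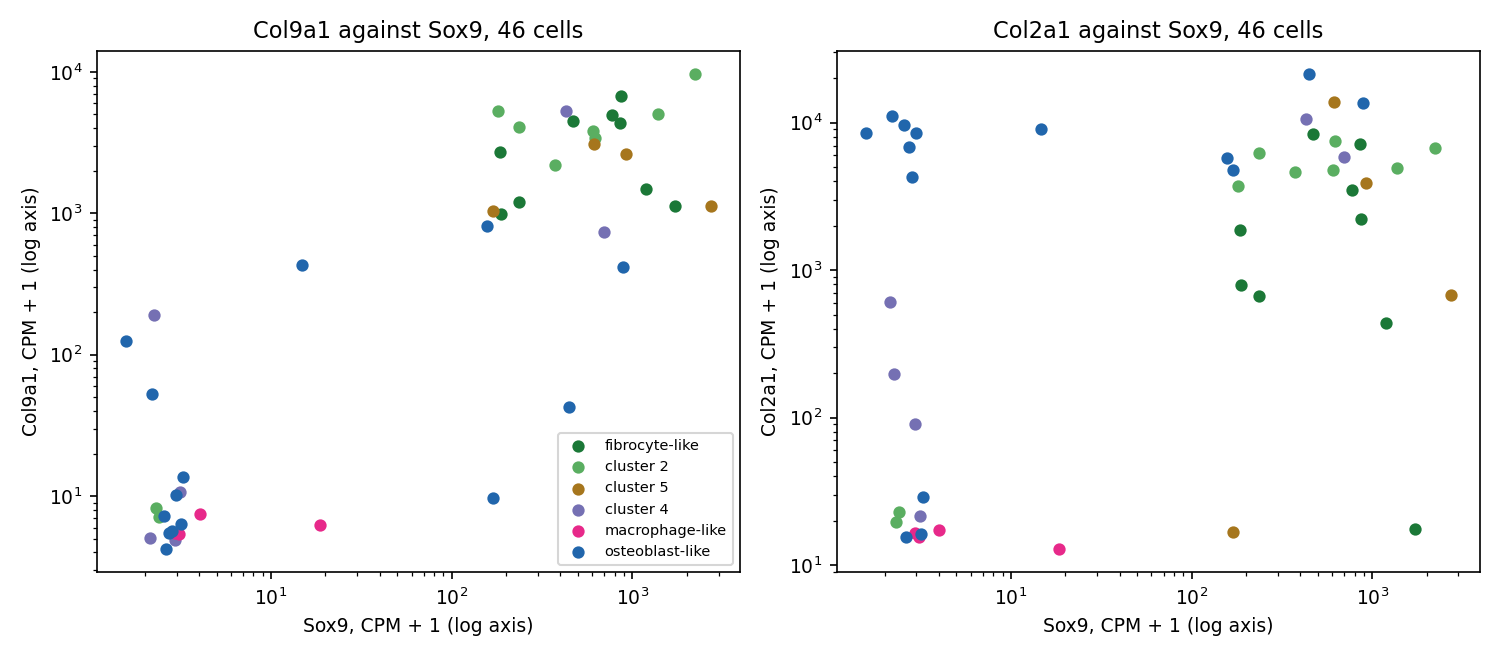
Col9a1 (left) and Col2a1 (right) against Sox9 in each of the 46 cells, all as CPM + 1 on log axes, with colours for the clusters. High Col9a1 lies almost entirely with high Sox9, whereas 6 osteoblast-like cells have Col2a1 at 4279 CPM or more with Sox9 at most 1.98 CPM.

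The splits were also read within cell classes. Among the 28 cells that were neither osteoblast-like nor macrophage-like, Sox9 was above background in 22 of 23 cells with Col9a1 and 0 of 5 without, and Lect1 in 18 of 23 and 0 of 5. Among osteoblast-like cells Sox9 was above background in 4 of 6 cells with Col9a1 and 1 of 8 without, and Lect1 in 1 of 6 and 1 of 8. By Col2a1, Sox9 was above background in 20 of 23 cells with it and 2 of 5 without among cells neither osteoblast-like nor macrophage-like, and in 5 of 11 and 0 of 3 among osteoblast-like cells. Exceptions to the pairing of Sox9 and Col9a1 were cells 6, 9 and 37, with Col9a1 at 52.2, 123 and 189 CPM and Sox9 at background, and cells 11 and 45, with Sox9 at 169 and 17.6 CPM and Col9a1 at 8.79 and 5.25 CPM. Markers of other cell types moved with both splits. Cells with Col9a1 had a median of 5 of the 8 fibrocyte markers above background, with a summed level of 281 to 169336 CPM. Cells without it had a median of 3 of 8 and a sum of 127 to 36040.1 CPM. Depth was close, at medians of 4971699 and 4568131 reads. Osteoblast markers above background had a median of 1 of 9 in cells with Col9a1 and 3 of 9 in cells without. Cells with Col2a1 had a median of 5 fibrocyte markers and a median sum of 31021 CPM, against 3 markers and 1037 CPM in cells without. The 4 macrophage-like cells were all without either collagen, and the median macrophage marker sum was 4.18 CPM with Col2a1 and 27 CPM without. The part of these markers in the splits was not tested beyond the counts within classes.

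**Figure D5:**
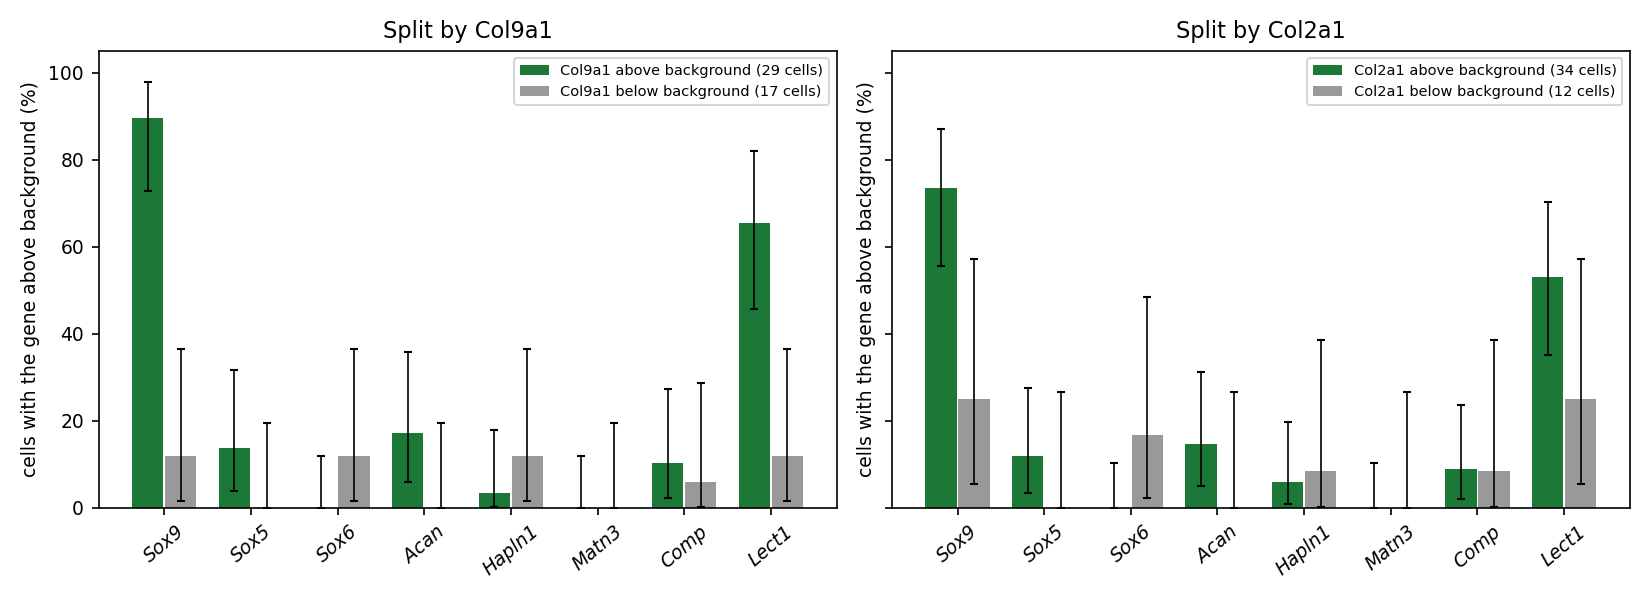
Share of cells (vertical axis, percent) with each member above background, in cells with (green) and without (grey) Col9a1 on the left and Col2a1 on the right. Bars are shares and whiskers exact 95% intervals. Sox9 stands at 89.7% with Col9a1 and 11.8% without, and at 73.5% with Col2a1 and 25% without. The whiskers treat cells as independent and are no test.

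Sox9, Lect1, Col2a1 and Col9a1 were together above background in 16 cells, and 10 of these had no other member. Of the 24 cells with Sox9, Col2a1 and Col9a1, 18 had none of Acan, Hapln1, Matn3 and Comp. At the other end, 5 cells had Col2a1 with no member, the osteoblast-like cells 1 and 4 and cells 37, 39 and 40 of cluster 4. Neither a member nor a reference collagen was above background in 4 cells, numbers 36, 42, 44 and 46.

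Set against the osteoblast-like cluster, the fibrocyte-like cluster had Sox9 higher by 5.55 and Lect1 by 7.75 on the log2(CPM + 1) scale (pooled SD over cells 2.67 and 2.33). Mean log2 levels were 9.10 ± 1.20 and 3.54 ± 3.27 for Sox9, and 10.94 ± 3.41 and 3.19 ± 1.29 for Lect1 (SD over 9 fibrocyte-like and 14 osteoblast-like cells). Of all genes 7.41% were higher by at least 2 in the fibrocyte-like cells and 10.7% lower. Of the 5 members that reached the minimum set for all genes, 2 were higher and 0 lower. For cluster 2 against the osteoblast-like cells the differences were 3.84 for Sox9 and 5.35 for Lect1 (pooled SD 3.43 and 3.04), with 5.75% of all genes higher and 9.48% lower. Cells 38 and 41 of cluster 2 had Sox9, Lect1 and both collagens at background, and without them, a choice made after seeing the data, the differences were 5.60 and 7.01. For cluster 5 they were 5.93 for Sox9, 5.01 for Lect1 and 3.48 for Acan (pooled SD 3.03, 2.00 and 2.95), with 10.4% of all genes higher and 12.3% lower. The Acan difference rested on 2 of 4 cells. In cluster 4 the differences were within the spread over cells, at 0.40 for Sox9 and -0.14 for Lect1 (pooled SD 3.49 and 1.39), where 11% of all genes were higher and 7.20% lower. Col2a1 differed by -1.0 between fibrocyte-like and osteoblast-like cells and Col9a1 by 6.41 (pooled SD 3.41 and 2.20).

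Of 42 further genes known from cartilage, 34 were above background in at least 1 cell and 16 in at least 10 cells. Genes of further type XI and type IX collagen chains were widespread, Col11a1 and Col11a2 in 36 cells each, Col9a2 in 30 and Col9a3 in 25. Wwp2, the host gene of a cartilage microRNA, was found in 27 cells and Chsy1, a chondroitin synthase gene, in 25. The 27 cells with Wwp2 include 4 of 4 macrophage-like cells, at 96.3 to 231 CPM. Otor, a relative of the cartilage gene Mia and also one of the fibrocyte markers, was found in 21 cells, Chst11, a chondroitin sulfotransferase gene, in 17 and Mia in 16. Ucma, Clec3a and Cilp2, which encode small or minor matrix proteins, were above background in 15, 14 and 14 cells. Matn2, a matrilin gene found in as many cells as Clec3a and Cilp2, was above background in 7 of 29 cells with Col9a1 and 7 of 17 without. Of 3 genes known from hypertrophic cartilage, named after their values were seen, Ihh was above background in 2 osteoblast-like cells, at up to 2368 CPM, and Mmp13 in 1 at 1566 CPM. No cell had the other one, Col10a1, above background, nor Matn1, Hapln3, Vcan, Cilp, Snorc (listed under an older symbol), Chst3 or Foxa2.

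These further genes did not all go with the members. In cells with Col9a1, 10 of the 26 that entered were higher by at least 2 log2 units and 1, Trps1, was lower, against 3.75% and 2.19% of all genes (median difference 1.39, of all genes 0.03). Fibrocyte-like against osteoblast-like cells, 10 of 26 were higher, among them Ucma, Mia and Clec3a, each above background in 9 of 9 fibrocyte-like cells and in 1, 2 and 0 of 14 osteoblast-like cells. Lower were 6 of 26, Chst11, Chsy1, Adamts5, Trps1, Nkx3-2 and Wwp2. Of all genes 7.41% were higher and 10.7% lower between these clusters. Some of the counted genes reached the minimum set for all genes only through the cells where they were high. Adamts5 and Nkx3-2 did so through osteoblast-like cells, and Cilp2 through cells with Col9a1. The shares of all genes are therefore no test of these counts. Adamts5, which encodes an aggrecan-cleaving protease, was above background in 0 of 9 fibrocyte-like and 9 of 14 osteoblast-like cells and in no other cell. Nkx3-2, a factor that keeps chondrocytes immature, was above background in 0 of 9 and 8 of 14, and in no other cell.

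Among 10296 genes at 10 CPM or more in at least 5 cells, the levels most like Sox9 over the 46 cells by Spearman's rank correlation were those of Col9a1 (0.76), Col9a3 (0.73) and Serpine2 (0.69). The genes most like Lect1 were Fam107a (0.75), Fbxo2 (0.71) and Col9a3 (0.70), and Col9a1 came eighth at 0.60. Fam107a was above background in 8 cells, all of which had Lect1. For Acan, present in 5 cells, Zfp949 (0.61), Pebp1 (0.56) and Hmgn3 (0.55) came first, and the rank correlation with Sox9 was 0.01. These values describe cells that share 1 sample, separate into clusters and hold many values at background.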

How the data were processed

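Per the labels' protocols, single cells were picked by hand, and libraries were made with SMART-Seq v4 and ThruPLEX kits. The submitters' processing notes list STAR 2.7.3a, bcl2fastq 2 and the builds GRCm38 and mm10. How reads were counted, with which annotation and whether by strand, is not given in the sources used here. Deposited values are CPM, named so per the file headers, and the listed genes summed to 86.4% to 93.5% of 1000000 per cell. Dividing by the smallest step of a cell turned 100% of the values into whole reads, within 0.01 read. With 1 labelled group no count test could be run on them.

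Above background means at least 10 CPM and at least 1% of the gene's mean. Clusters were made from the 2000 most variable genes, judged against a lowess trend, among genes at 1 CPM in at least 5 cells, without all 90 listed symbols, 7 mitochondrial and 109 ribosomal protein genes. They were reduced to 10 principal components and joined by Ward linkage, with the highest silhouette among 2 to 6 clusters of at least 3 cells. A cluster was named, by a rule written after the clusters had been seen, when 3 or more markers of a type exceeded the other cells by 2 log2 units and reached 1 CPM in 50% of its cells, no other type had as many, and its top 10 genes held such a marker and no more of any other type. No doublet caller was run. Differences are of mean log2(CPM + 1), which understates low genes. Exon lengths are from GENCODE on GRCm38. Named genes were the members, the reference collagens, the 12 further cartilage genes found in the most cells, and the 3 genes most like each member found in at least 5 cells. Matn2, tied with the last of these 12, is given too. Adamts5, Nkx3-2, Trps1, Ihh, Mmp13 and the genes found in no cell were named after their values were seen. Members and lists were chosen with earlier results of these data known. Python 3.11.15, pandas 2.3.3, scipy 1.17.1, scikit-learn 1.9.0 and statsmodels 0.14.6 were used. Steps were tested on simulated data.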

Additional observations from a re-analysis of the deposited data

How the results depend on the processing

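The calls rest on the limit for background. At a limit of 1 CPM, Sox9 was called in 45 cells and Lect1 in 46, at least 2 members in 46 cells, at least 3 in 15, and no member in 0. At a limit of 100 CPM, Sox6 was called in 1 cell, Acan in 3, and no member in 14 cells. Without the 14 cells that held at least 3 osteoblast and 3 fibrocyte markers, chosen after seeing the data, Acan was called in 3 cells, Hapln1 in 0 and Comp in 2. The other 83 recomputed values of the main results and all 142 of the sparser members, the reference collagens and rank correlations stayed within set limits. Differences moved by less than the pooled SD over cells, and counts by at most 1.5 times. This limit is wide, and a difference below 2 log2 units could change sign within it. Against the osteoblast-like cluster, Acan in cluster 4 went from -0.72 to 0.57 with clusters from more variable genes. Lect1 in cluster 4 went from -0.14 to 0.31 with no filter on low genes. Differences of at least 2 log2 units kept their sign. Rank correlations moved by less than an approximate sampling margin, such as from 0.76 to 0.74 for Sox9 and Col9a1 without macrophage-like cells. The 42 further cartilage genes were not recomputed. The recomputed values include reads thinned to 2522853 per cell, other pseudocounts, and clusters from more variable genes or with no filter on low genes, which gave 5 clusters. In both, cluster 2 and the fibrocyte-like cluster were matched to 1 and the same cluster, so their differences there (Sox9 5.86 and 5.30, Lect1 7.36 and 7.45) are those of the merged cluster. Average linkage gave 2 clusters, of 42 and 4 cells, so it gave no value for differences between clusters. No paired analysis was possible because all cells are in 1 group. With 1 sample, no difference has been checked in a replicate.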
